A study of Sus scrofa with 23 samples.

Results

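The newborn samples of the series were set against the stages on either side of birth, to find the transcripts that lay above or below both. The 6 samples taken at 1 day post natum (dpn) were chosen by their stage label out of 23 samples, and their mean was compared with the average of the 94 days post conception (dpc) mean of 5 samples and the 28 dpn mean of 6 samples. The series holds a further 6 samples of 188 dpn. Each sample was total RNA from an animal labelled as offspring of German Landrace gilts, hybridised to a porcine Affymetrix array, and the series title concerns fetal programming of muscle by gestational dietary protein. The gestational low protein (LP) diet was shared by all 4 stages, so age is compared here and diet is not. The series text names 3 gilts as the dams sampled at each stage, and no sample is labelled with its dam. Animals of a stage may therefore share a dam, and the p-values, which treat the animals as independent, may be too small. Stage, birth and age also move together in these samples and cannot be told apart.

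At birth a piglet loses the placental glucose supply and the warmth of the uterus. It is born with little body fat, heats itself largely by muscle contraction, and turns within a day to fat-rich colostrum and milk as fuel. A rise of cortisol and adrenaline around delivery is known to prepare the tissues of mammals for this change, in part through the glucocorticoid receptor. Skeletal muscle of the pig grows after birth mainly by enlarging its fibres.

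The tissue label of every sample is liver, which the expressed genes did not bear out. CKM, the muscle creatine kinase, had signals between 39615 and 48137 at 94 dpc, between 39852 and 87002 at 1 dpn and between 54155 and 93811 at 28 dpn. ALB, the albumin of hepatocytes, ranged over 163 to 1159, 81.8 to 2909 and 34.5 to 6400 at the same stages. The samples are therefore named by stage alone, and fewer cells of a type and less RNA per cell cannot be told apart in them. The summed signal of the 11 measured hepatocyte markers was 14042 to 19456 in the 3 newborns of low control ratio described next, against 4714 to 7906 in the other 3 newborns. At 94 dpc the sum ran over 12030 to 40682 and at 28 dpn over 2107 to 26781.

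Newborn samples fell into 2 sets by an array control. The ratio of the 5' to the 3' GAPDH control probe set, which drops when RNA is broken or labelling stops short, was 0.0868, 0.148 and 0.138 in newborn replicates 2, 4 and 5. It was 1.09 to 1.13 in newborn replicates 1, 3 and 6, and 1.09 to 1.29 over all 20 arrays other than those 3, so no array lay near the threshold of 0.5. The matching actin ratio did not set the same arrays apart: it was 1.01, 0.817 and 0.985 in the low-ratio newborns, against 1.21, 1.20 and 0.999 in the others. The median spread of a probe set was an SD of 0.59 at 1 dpn, 0.36 at 94 dpc and 0.41 at 28 dpn on the log2 scale, and 0.44 and 0.45 within the low-ratio and the other newborns. Results below use all 6 newborns unless stated, and for a named gene the value without the low-ratio arrays is added where they end its call or move its contrast by over 1.5-fold.

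**Figure D1:**
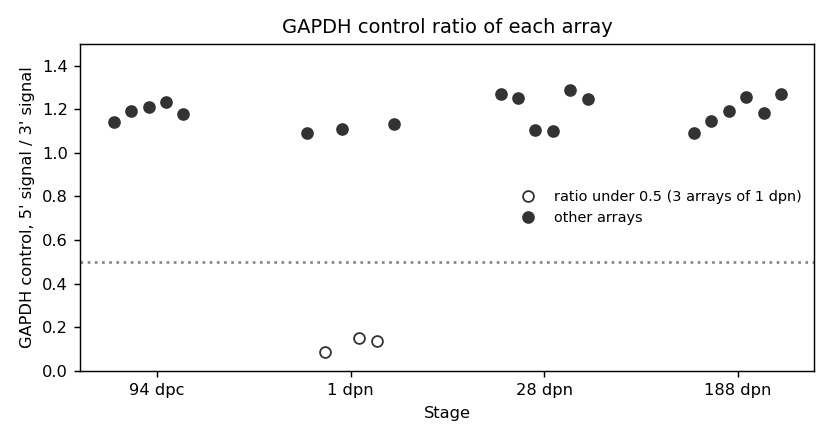
Ratio of the 5' to the 3' signal of the GAPDH control (vertical axis, no unit) on each of the 23 arrays, by stage; each point is 1 array and the dotted line is the threshold of 0.5. The 3 open points of 1 dpn lie at 0.0868 to 0.148, and the other 20 arrays at 1.09 to 1.29.

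Across the array, more transcripts dipped at 1 dpn than peaked. A transcript was called a peak when 1 dpn was above the average of its neighbours and above each of them, and a trough when it was below in the same 3 comparisons, each at an adjusted p under 0.05 in limma over all 23999 probe sets. In the contrast with the neighbour average, 1791 probe sets (7.46%) were higher and 3562 (14.8%) lower. Of these, 81 and 195 still had a newborn mean between those of the neighbours. Peaks numbered 640 (2.67%) and troughs 1153 (4.8%), of which 273 and 509 were at least 2-fold from both neighbours. The 6 newborn values lay above or below every value of both neighbours for 239 peaks (37.3%) and 316 troughs (27.4%), against 1.02% and 1.38% of all probe sets. The calls used these same values, so the shares describe the samples and are no test. Taken as 1 probe set for each of the 6765 named genes, 296 genes (4.38%) were peaks and 396 (5.85%) troughs. Without the low-ratio newborns, 4.45% of genes were peaks and 4.92% troughs, and in the contrast 11.4% were higher and 13.4% lower.

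The excess of troughs rested on the scaling of the arrays. Peaks made up 35.7% of peaks and troughs on the deposited scale, 59.9% with every array centred on its own median and 49.3% with quantiles made equal. Called contrasts that were higher made up 33.5%, 56.6% and 46.4% in the same order. The median contrast of all probe sets was -0.08 on the deposited scale, 0.02 after quantile normalization and 0.10 after centring, so gene changes under about that size depend on the scale. Calls of larger contrasts can depend on it too. Of the 97 peaks and troughs named below, 12 lost their call after quantile normalization and 9 after centring.

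**Figure D2:**
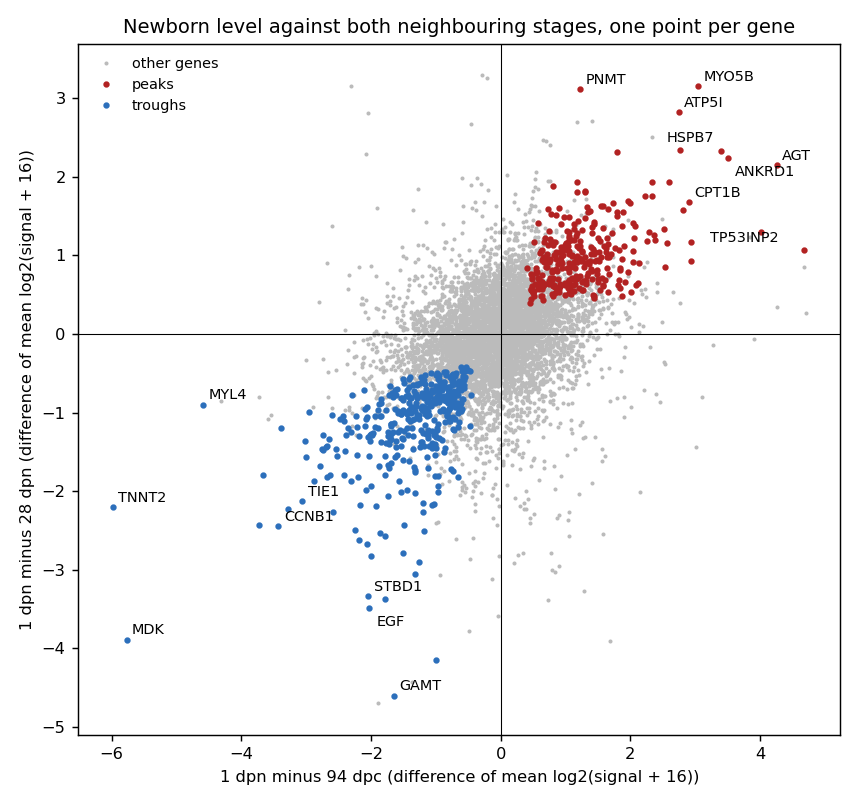
Difference of 1 dpn from 94 dpc (horizontal) and from 28 dpn (vertical), both as differences of mean log2(signal + 16), with 1 point for each of the 6765 genes. Red points are the 296 peaks, blue points the 396 troughs and grey points the other genes; MYO5B and AGT stand in the upper right and MDK and TNNT2 at the left.

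By the smaller of both differences, the first 15 peaks whose samples did not overlap were MYO5B, ATP5I, SLC25A33, HSPB7, ANKRD1, PM20D2, TWF2, RRP7A, LMCD1, ABHD18, CPT1B, HSPB6, ACADVL, CTPS1 and NFIC, and the smaller difference was 2.94- to 8.25-fold. All 15 were peaks also without the low-ratio newborns and in each of the 17 fits that left out 1 sample. They were picked from the same values for large differences without overlap, so their kept calls are no independent evidence. MYO5B, a myosin motor that carries recycling membrane vesicles, had signals of 322, 128, 107, 68.4 and 88.6 at 94 dpc, 792, 1575 and 1515 in the low-ratio newborns, 719, 1091 and 1432 in the other newborns, and 71.5 to 156 with a median of 127 at 28 dpn. Its newborn signals were 8.25-fold from 94 dpc and 8.89-fold from 28 dpn on the log2(signal + 16) scale, with a contrast of 3.10 ± 0.33 (log2, SE) and a largest adjusted p of 5.7e-06 over the 3 comparisons.

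HSPB7 and ANKRD1 followed the same course. HSPB7, a small heat shock protein of heart and skeletal muscle, had 729, 958, 573, 564 and 479.7 at 94 dpc, 8743, 6861 and 7716 in the low-ratio newborns, 3067, 7703 and 10086 in the other newborns, and 1071 to 1880 with a median of 1351 at 28 dpn. Newborn replicate 1 was the lowest of the 6 and still above both neighbours, and the contrast was 2.86 ± 0.25 (largest adjusted p = 5.6e-06). ANKRD1, an ankyrin repeat protein that binds titin and responds to stretch, had 847, 304, 667, 1195 and 617 at 94 dpc, 9030, 12621 and 9190 in the low-ratio newborns, 4034, 8090 and 5993 in the other newborns, and 720.3 to 3096 with a median of 2004 at 28 dpn, with no overlap and a contrast of 2.87 ± 0.34 (adjusted p = 0.00031). A second ANKRD1 probe set was also a peak. At 188 dpn ANKRD1 had 3064 to 12846 and overlapped the newborn range.

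CPT1B, the muscle enzyme that commits fatty acids to mitochondrial import, had 1532, 1059, 747, 999.6 and 775 at 94 dpc, 7325, 5669 and 6451 in the low-ratio newborns, 10779, 6097 and 10008 in the other newborns, and 2009 to 2758 with a median of 2311 at 28 dpn. Every newborn lay above every sample of both neighbours, 7.47-fold from 94 dpc and 3.19-fold from 28 dpn, with a contrast of 2.29 ± 0.17 (adjusted p = 3.5e-06). ACADVL, which opens the oxidation of long-chain acyl-CoA, had 3995, 3286, 2460, 2364 and 2435 at 94 dpc, 15615, 16485 and 15698 in the low-ratio newborns, 26620, 22361 and 27326 in the other newborns, and 5456 to 7817 with a median of 6775 at 28 dpn. The low-ratio newborns were the lower 3 of the 6 for ACADVL, and all were above both neighbours (contrast 2.20 ± 0.18, adjusted p = 1.3e-05).

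ATP5I, subunit e of the mitochondrial ATP synthase, varied widely outside the newborns, with 2862, 1348, 676, 6554 and 3414 at 94 dpc, 13354, 17487 and 13144 in the low-ratio newborns, 19455, 11944 and 17731 in the other newborns, and 669 to 5074 with a median of 2433 at 28 dpn. The newborn values were alike and all higher (contrast 2.79 ± 0.47, adjusted p = 0.00068), but another ATP5I probe set gave a contrast of -0.18 that was not called. SLC25A33, a mitochondrial carrier of pyrimidine nucleotides, averaged 369 ± 46.0 at 94 dpc, 3306 ± 2951 at 1 dpn and 512 ± 144 at 28 dpn (SD, n = 5, 6 and 6, as for all means below), and CTPS1, which makes CTP, averaged 179.8 ± 61.4 at 94 dpc, 705 ± 198 at 1 dpn and 235 ± 84.2 at 28 dpn. Their contrasts were 2.56 ± 0.29 and 1.72 ± 0.23 (adjusted p = 3.4e-05 and 0.00017), and a second SLC25A33 probe set had 0.49 with no call.

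TWF2, a twinfilin that binds actin, had a contrast of 2.13 ± 0.18 (adjusted p = 1.3e-06) with means of 1164 ± 286 at 94 dpc, 6057 ± 2118 at 1 dpn and 1512 ± 124 at 28 dpn. LMCD1, a LIM domain protein of muscle, averaged 3875 ± 981 at 94 dpc, 18076 ± 3457 at 1 dpn and 5327 ± 924 at 28 dpn (contrast 2.00), and HSPB6, a small heat shock protein of muscle, 2404 ± 614 at 94 dpc, 9683 ± 2763 at 1 dpn and 2988 ± 645 at 28 dpn (contrast 1.83). NFIC, a transcription factor of the nuclear factor I family, reached 21681, 14680 and 14996 in the low-ratio newborns, against 4278, 7998 and 8634 in the others, so its contrast was 1.59 with all 6 and 0.92 without the low-ratio arrays. PM20D2, a dipeptidase, and RRP7A, a factor of ribosome assembly, had contrasts of 2.27 and 2.05, and ABHD18, a protein with a hydrolase domain, 1.83 (adjusted p = 0.00012, 0.0019 and 1.1e-05). Of other probe sets of these genes, 1 of NFIC (-0.90) and 1 of HSPB6 (-0.51) had contrasts of opposite sign that were not called.

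The first 15 troughs by the same rule were MDK, CCNB1, ATRX, ANKRD37, PDZRN3, CCL2, TIE1, STBD1, EGF, LCP2, PHACTR3, MOSPD2, ZFAND2B, CCDC80 and SNTB1, with a smaller difference of 3.63- to 14.8-fold. These 15 too were troughs without the low-ratio newborns and in each fit without 1 sample. As for the peaks, the way they were picked favours this, and it is no independent evidence. MDK, the heparin-binding growth factor midkine, had 3783, 2703, 3074, 3194 and 3900 at 94 dpc, 10.0, 15.5 and 8.92 in the low-ratio newborns, 238, 118 and 56.6 in the other newborns, and 465 to 1376 with a median of 910.1 at 28 dpn. The low-ratio newborns were at or under 15.5 and the others were also below both neighbours, with a contrast of -4.83 ± 0.43 with all 6 (adjusted p = 9e-06) and -3.68 without the low-ratio arrays. A second MDK probe set was a trough as well.

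EGF and STBD1 were lowest at 1 dpn of the 4 stages. EGF, epidermal growth factor, had 1113, 1048, 1515, 1563 and 1576 at 94 dpc, 102, 416 and 352 in the low-ratio newborns, 982, 426 and 149 in the other newborns, and 2672 to 4603 with a median of 3779 at 28 dpn. No newborn reached the lowest fetal value, although replicate 1 came near it, and the contrast was -2.76 ± 0.30 (adjusted p = 0.00016). STBD1, which tethers glycogen for delivery to lysosomes, had 3884, 3149, 3213, 3684 and 3435 at 94 dpc, 343, 477 and 1001 in the low-ratio newborns, 2859, 767 and 891 in the other newborns, and 7272 to 9866 with a median of 8681 at 28 dpn, a contrast of -2.69 ± 0.27 (adjusted p = 6.2e-05). Newborn replicate 1 was again the highest of its stage for STBD1. At 188 dpn the means were 5873 ± 782 for EGF and 9454 ± 1597 for STBD1 (SD, n = 6), above those of 28 dpn.

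CCNB1, the mitotic cyclin B1, had 412, 533, 495, 321 and 476 at 94 dpc, 6.37, 6.47 and 42.3 in the low-ratio newborns, 74.2, 54.6 and 15.5 in the other newborns, and 171 to 272 with a median of 222 at 28 dpn, with no overlap at 1 dpn (contrast -2.94 ± 0.27, adjusted p = 8.9e-06). At 188 dpn CCNB1 averaged 47.4 ± 17.1 (SD, n = 6), and at 1 dpn 33.2 ± 28.2. ATRX, a chromatin remodeller, averaged 219.7 ± 86.5 at 94 dpc, 30.2 ± 33.7 at 1 dpn and 168 ± 39.5 at 28 dpn (contrast -2.42), and ANKRD37, a gene induced by low oxygen, 240.3 ± 47.9 at 94 dpc, 41.5 ± 27.5 at 1 dpn and 292 ± 72.2 at 28 dpn (contrast -2.37). PDZRN3, a ubiquitin ligase of the neuromuscular junction, and SNTB1, a syntrophin of the dystrophin complex, had contrasts of -2.41 and -2.20 (adjusted p = 4e-05 and 8.8e-06).

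CCL2, a chemokine that draws monocytes, averaged 617 ± 126 at 94 dpc, 138 ± 66.1 at 1 dpn and 625 ± 166 at 28 dpn (contrast -2.17 ± 0.25), and LCP2, a signalling adaptor of leukocytes, 86.4 ± 16.0 at 94 dpc, 11.4 ± 13.7 at 1 dpn and 168 ± 47.8 at 28 dpn (contrast -2.41 ± 0.26). CCDC80, a secreted matrix protein, averaged 2379 ± 207 at 94 dpc, 519 ± 248 at 1 dpn and 1856 ± 708 at 28 dpn (contrast -2.09 ± 0.25). ZFAND2B, a proteasome-associated zinc finger protein, had 86.7, 10.0 and 139 in the low-ratio newborns, against 418, 373 and 451 in the others. Its contrast was -2.06 with all 6 and -0.79, still called, without the low-ratio arrays (adjusted p = 0.007), and a second probe set had -0.26 with no call. PHACTR3, which binds actin and protein phosphatase, and MOSPD2, a membrane contact protein, had contrasts of -2.03 and -1.97 (adjusted p = 1.7e-05 and 0.00069).

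**Figure D3:**
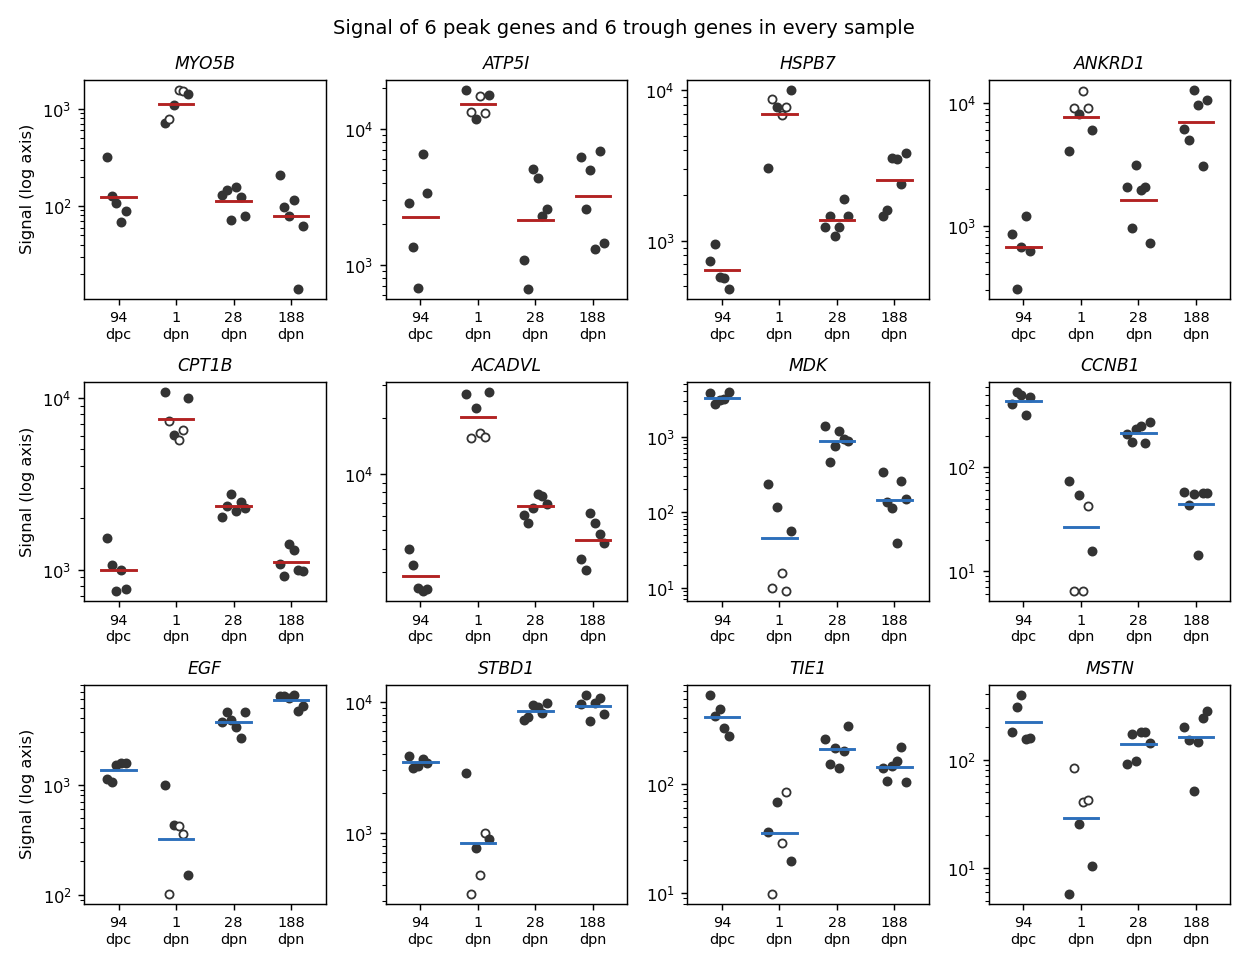
Deposited signal (log axis) of 6 peaks and 6 troughs in every sample, by stage; open points are the low-ratio newborns and lines are stage means taken on the log2(signal + 16) scale. All 6 newborns of MYO5B lie at 719 or more and all samples of 94 dpc and 28 dpn at 322 or less.

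The heat shock and Z-disc genes of striated muscle held the highest share of peaks among the 37 gene lists described here. Of 16 measured, 10 were higher and 0 lower in the contrast, 8 were peaks and 0 troughs, and the median contrast was 0.99, beside -0.05 over all genes, of which 12.1% were higher and 16.8% lower. Over all genes 4.38% were peaks and 5.85% troughs, and these shares stand beside every list below. HSPB7, ANKRD1, LMCD1 and HSPB6 were named above. CRYAB, the small heat shock protein alpha-B crystallin, averaged 10453 ± 1996 at 94 dpc, 32913 ± 5174 at 1 dpn and 14861 ± 2070 at 28 dpn (contrast 1.40 ± 0.18, adjusted p = 0.00048), with no overlap. BAG3, a co-chaperone that clears damaged filamin at the Z-disc, averaged 2145 ± 346 at 94 dpc, 8184 ± 3485 at 1 dpn and 4364 ± 677 at 28 dpn (contrast 1.33 ± 0.19), with overlap, and lost its call without the low-ratio newborns (contrast 1.05, adjusted p = 0.12). So did XIRP1, an actin-binding protein of striated muscle singled out after its values were seen, whose contrast was 1.62 with all 6 and 0.90 without them (adjusted p = 0.25), and 6 peaks of the list remained. Second probe sets of BAG3 and LMCD1 were not called (contrasts 0.07 and 0.98). The list was drawn up with its newborn rise already known, and its count is no independent evidence.

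Chaperones and proteasome subunits were higher more often than lower. Among 25 heat shock proteins and chaperones, 11 were higher, 0 lower, and 8 peaks, with a median contrast of 0.31. CRYAB and BAG3, named above, were counted as peaks in both lists, so the lists are not separate evidence. The peak count was 8 without the low-ratio newborns, of which 6 were peaks in both fits, and 5 after quantile normalization. HSPA9, the mitochondrial HSP70, averaged 5346 ± 375 at 94 dpc, 15374 ± 3774 at 1 dpn and 8575 ± 1294 at 28 dpn (contrast 1.16 ± 0.16, adjusted p = 0.0023) and did not overlap. DNAJB6, a co-chaperone that limits protein aggregation in muscle, had 14944, 5546 and 4931 in the low-ratio newborns, against 2057, 3009 and 4330 in the others, 1035 to 1239 at 94 dpc and 1452 to 2151 at 28 dpn. Its contrast was 1.73 with all 6 and 1.07 without the low-ratio arrays, whereas another DNAJB6 probe set was lower by contrast (-0.63), so the direction for this gene rests on the probe set.

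Of 35 proteasome genes, 18 were higher and 3 lower, with 9 peaks, 0 troughs and a median contrast of 0.53. Without the low-ratio newborns 11 were peaks, of which 6 were peaks in both fits. PSMA7, of the catalytic core's outer ring, averaged 17527 ± 1944 at 94 dpc, 40637 ± 7036 at 1 dpn and 20878 ± 2058 at 28 dpn (contrast 1.07 ± 0.13, adjusted p = 8.7e-05), with no overlap. PSMD2 and PSMD3, of the regulatory cap, had contrasts of 0.98 ± 0.14 and 1.08 ± 0.19 (adjusted p = 0.0071 and 0.0019). PSMD12, of the same cap, had 0.98 ± 0.18 and lost its call in 4 of the 17 fits without 1 sample (adjusted p = 0.051 to 0.063) and without the low-ratio newborns (contrast 0.94, adjusted p = 0.12). The 3 lower genes, singled out after their values were seen, were PSMD5, a chaperone of cap assembly, and PSME1 and PSME2, the activator subunits induced by interferon, at -0.62, -1.01 and -0.86. All 3 lost their call without the low-ratio newborns, when 0 genes of the list were lower.

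Autophagy genes were mixed. Of 20, 3 were peaks and 1 a trough. TP53INP2, which moves from the nucleus to build autophagosomes, had 53.6, 139, 99.2, 246 and 55.5 at 94 dpc, 1851, 3577 and 1882 in the low-ratio newborns, 3421, 4507 and 3837 in the other newborns, and 1115 to 1644 with a median of 1493 at 28 dpn (contrast 2.87 ± 0.27, adjusted p = 0.019). Its newborn values were above all neighbours, and its 28 dpn values were above all fetal ones. MAP1LC3B, the membrane mark of autophagosomes, averaged 2482 ± 279 at 94 dpc, 7024 ± 4073 at 1 dpn and 3377 ± 517 at 28 dpn (contrast 1.13), though a second probe set gave -0.18 with no call. SQSTM1, the cargo receptor p62, had a contrast of 1.34 that was no longer a peak without the low-ratio newborns (contrast 0.85, adjusted p = 0.23), and ATG3, an enzyme of LC3 lipidation, was a trough at -0.55 ± 0.13 that was lost after quantile normalization and after centring (adjusted p = 0.097 and 0.22).

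Fatty acid oxidation and the respiratory chain leaned one way. Of 20 beta-oxidation genes, 12 were higher and 0 lower, with a median contrast of 0.65, and 5 were peaks, or 7 without the low-ratio newborns. HADHA, of the trifunctional protein that shortens long-chain fatty acids, averaged 3013 ± 717 at 94 dpc, 12373 ± 2032 at 1 dpn and 5919 ± 855 at 28 dpn (contrast 1.55 ± 0.15, adjusted p = 0.00016) and did not overlap. ACSL1, which activates fatty acids with CoA, averaged 2149 ± 357 at 94 dpc, 9441 ± 2006 at 1 dpn and 5989 ± 1110 at 28 dpn (contrast 1.38 ± 0.16), with overlap. FABP3, the fatty acid-binding protein of heart and muscle, had 18728, 41519 and 33806 in the low-ratio newborns, against 76155, 52482 and 53129 in the others, 5458 to 10200 at 94 dpc and 20230 to 27930 at 28 dpn. Newborn replicate 2 overlapped 28 dpn. Its contrast of 1.69 ± 0.26 just passed (adjusted p = 0.046) and was lost in 13 of the 17 fits without 1 sample (adjusted p = 0.053 to 0.1), while without the low-ratio arrays it was 2.20 (adjusted p = 0.0044).

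Of 52 measured subunits of the respiratory chain and ATP synthase, 33 were higher and 0 lower, and 11 were peaks. Without the low-ratio newborns the higher subunits numbered 44 and the peaks 21, of which 10 were peaks in both fits. The median contrast was 0.60, and 0.41 after quantile normalization. COX7A2, a small subunit of cytochrome oxidase, had 9975, 10565, 8067, 10945 and 10647 at 94 dpc, 26648, 26926 and 19246 in the low-ratio newborns, 33966, 24392 and 27136 in the other newborns, and 6906 to 11572 with a median of 8891 at 28 dpn (contrast 1.48 ± 0.14, adjusted p = 3.3e-06). No newborn overlapped its neighbours for COX7A2, nor for NDUFC2 of complex I at 1.22 ± 0.16 (adjusted p = 0.001). UQCRB, of complex III, had 1.18 ± 0.14 and lost its call in 6 of the 17 fits without 1 sample (adjusted p = 0.052 to 0.083) and without the low-ratio newborns (contrast 1.00, adjusted p = 0.28).

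Among 16 genes of fuel switching and fasting, 9 were higher, 0 lower and 4 peaks, with a median of 0.67. Only CPT1B of those peaks remained without the low-ratio newborns. PLIN2, which coats lipid droplets, had newborn values of 549.7, 678 and 598 in the low-ratio and 546, 616 and 505 in the other samples, all above both neighbours (contrast 0.99 ± 0.22), but without the low-ratio newborns the adjusted p was 0.12 at a contrast of 0.93, and it was also lost without 28 dpn replicate 6 (adjusted p = 0.058). FOXO1, a transcription factor of fasting, was 7099, 4064 and 1625 in the low-ratio newborns, against 1007, 1344 and 1964 in the others, 1072 to 1375 at 94 dpc and 797 to 1262 at 28 dpn. Its contrast of 1.01 ± 0.28 was lost in 9 of the 17 fits without 1 sample (adjusted p = 0.05 to 0.11) and was 0.33 without the low-ratio arrays (adjusted p = 0.46). PDK4, which blocks pyruvate entry into the mitochondrion, had 474, 634, 500.1, 208 and 318 at 94 dpc, 23936, 13608 and 7930 in the low-ratio newborns, 8939, 9340 and 6699 in the other newborns, and 2598 to 12195 with a median of 6115 at 28 dpn. It was higher in the contrast (2.77 ± 0.36) and no peak, and newborn and 28 dpn values overlapped (largest adjusted p = 0.17). PNPLA2, the triglyceride lipase that opens fat stores, averaged 2070 ± 219 at 94 dpc, 16572 ± 5768 at 1 dpn and 7284 ± 2427 at 28 dpn (contrast 2.05 ± 0.19, adjusted p = 0.00051) and was the 1 peak of 9 adipocyte genes. A second PNPLA2 probe set had 0.35 with no call.

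Genes that respond to glucocorticoids were more often higher than lower at 1 dpn, and fewer were peaks without the low-ratio newborns. Of 18 measured, 9 were higher and 0 lower, with a median contrast of 0.86. Of the 5 peaks, 1 remained without those arrays, when 9 were higher and 1 lower in the contrast, with a median of 0.59. CEBPD, a transcription factor of the acute response, had 1340, 2350, 1751, 1125 and 1975 at 94 dpc, 15809, 14353 and 10159 in the low-ratio newborns, 3433, 5863 and 7683 in the other newborns, and 1168 to 5752 with a median of 2405 at 28 dpn. The low-ratio newborns were the 3 highest values, and the contrast was 2.05 ± 0.35 (adjusted p = 0.0037) with all 6 and 1.40 (adjusted p = 0.13) without them. Of 2 more CEBPD probe sets, 1 was a peak and 1 was not called.

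KLF9, a transcription factor induced by the glucocorticoid receptor, was 8579, 4759 and 4076 in the low-ratio newborns, against 2136, 2028 and 1500 in the others, 472 to 786 at 94 dpc and 1122 to 1844 at 28 dpn (contrast 1.78, and 1.01 without the low-ratio arrays, adjusted p = 0.35). PER1, a clock gene that glucocorticoids induce, was the peak that remained, with 13727, 12628 and 4849 in the low-ratio and 2937, 5107 and 7123 in the other newborns (contrast 1.45 ± 0.25, and 0.95 at adjusted p = 0.026 without the low-ratio arrays). Second probe sets of KLF9 and PER1 had 0.14 and 0.07 with no call. GLUL, glutamine synthetase, had contrasts of 1.35 and 0.93 in the 2 fits (adjusted p = 0.0023 and 0.051), and TXNIP, an inhibitor of thioredoxin and glucose uptake, 0.81 and 0.56 (adjusted p = 0.03 and 0.33). TXNIP lost its call also in 6 of the 17 fits without 1 sample (adjusted p = 0.057 to 0.07) and after quantile normalization (adjusted p = 0.13). FKBP5, a chaperone that dampens the glucocorticoid receptor, had 74.5, 119, 106, 83.2 and 78.0 at 94 dpc, 5867, 3567 and 891 in the low-ratio newborns, 269.6, 1480 and 1607 in the other newborns, and 452 to 1141 with a median of 622 at 28 dpn. It was higher in the contrast (2.54 ± 0.40) and no peak (largest adjusted p = 0.066), and its newborn values ran from below to above those of 28 dpn. Without the low-ratio newborns the contrast of FKBP5 was 1.74.

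Of 15 genes of adrenaline, angiotensin and steroid signalling, 2 were peaks and 1 a trough, and none of the 3 remained without the low-ratio newborns. AGT, the precursor of angiotensin, had 528, 324, 533, 476 and 441 at 94 dpc, 27244, 9296 and 9514 in the low-ratio newborns, 2759, 5985 and 13171 in the other newborns, and 690.4 to 5877 with a median of 2171 at 28 dpn. The contrast was 3.20 ± 0.42 (adjusted p = 0.0029), and 2.63 (adjusted p = 0.069) without those arrays. AGT is made mainly by hepatocytes, whose markers were higher in the low-ratio newborns by the sums given above, and their part in the AGT values was not tested. PNMT, which turns noradrenaline into adrenaline, had 178, 83.8, 95.2, 41.8 and 97.6 at 94 dpc, 366, 192 and 116 in the low-ratio newborns, 68.4, 284 and 933 in the other newborns, and 8.1 to 21.3 with a median of 12.5 at 28 dpn, a contrast of 2.17 ± 0.36 that was lost in 7 of the 17 fits without 1 sample (adjusted p = 0.058 to 0.11) and without the low-ratio newborns (contrast 2.37, adjusted p = 0.051). NR3C1, the glucocorticoid receptor, had 828, 575, 870.0, 419 and 379 at 94 dpc, 10.6, 7.86 and 24.6 in the low-ratio newborns, 227, 275 and 14.3 in the other newborns, and 122 to 378 with a median of 315 at 28 dpn (contrast -2.75 ± 0.44, and -1.69 at adjusted p = 0.15 without the low-ratio arrays). Newborn replicates 1 and 3 were higher than the other 4 newborns. Of 3 other NR3C1 probe sets, 2 had contrasts of opposite sign (0.44 and 0.84) and none was called, so no direction is given for this gene.

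Cell division genes were mostly lower at 1 dpn. Of 32 measured, 21 were lower and 1 higher, 11 were troughs and 0 peaks, and the median contrast was -1.27. The troughs numbered 8 without the low-ratio newborns, 6 of them shared, and 9 and 8 after quantile normalization and centring. The 1 higher gene, singled out after its value was seen, was CDKN3, a phosphatase of cyclin-dependent kinases (1.58 ± 0.33). UBE2C, which tags mitotic cyclins for destruction, had 1085, 1104, 1068, 862 and 1021 at 94 dpc, 49.9, 111 and 23.1 in the low-ratio newborns, 392, 24.9 and 27.1 in the other newborns, and 311 to 555 with a median of 419.5 at 28 dpn (contrast -3.08 ± 0.44, adjusted p = 0.0015), and a second probe set gave 0.09 with no call. MELK, a mitotic kinase, averaged 178 ± 48.6 at 94 dpc, 11.7 ± 4.13 at 1 dpn and 74.8 ± 25.1 at 28 dpn and did not overlap, and CKS2, a partner of the mitotic kinase, averaged 1551 ± 187 at 94 dpc, 258 ± 175 at 1 dpn and 641 ± 90.2 at 28 dpn with overlap. Their contrasts were -2.24 ± 0.23 and -2.07 ± 0.22 (adjusted p = 9.2e-05 and 0.00029).

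Of 18 growth factor genes, 2 were higher and 6 lower in the contrast, beside 12.1% and 16.8% of all genes. None was a peak and 4 were troughs, beside 4.38% and 5.85% of all genes. The troughs were MDK, EGF, IGF1 and GHR, all 4 also without the low-ratio newborns. The median contrast was -0.08, and 0.09 after centring. IGF1, insulin-like growth factor 1, had 303, 183, 322, 308 and 235 at 94 dpc, 140.2, 52.9 and 29.4 in the low-ratio newborns, 154, 78.4 and 21.7 in the other newborns, and 200.4 to 257 with a median of 228 at 28 dpn, with all newborns below both neighbours (contrast -1.67 ± 0.30, adjusted p = 0.0028). Of 2 other IGF1 probe sets, neither was called and 1 had the opposite sign (0.32). GHR, the growth hormone receptor, averaged 347 ± 175 at 94 dpc, 113 ± 54.9 at 1 dpn and 339 ± 69.4 at 28 dpn (contrast -1.55 ± 0.28, adjusted p = 0.0015).

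MSTN, myostatin, which restrains muscle growth, had 181, 303, 398, 154 and 160.1 at 94 dpc, 84.2, 41.0 and 42.4 in the low-ratio newborns, 5.79, 25.5 and 10.6 in the other newborns, and 91.3 to 182 with a median of 159 at 28 dpn. Every newborn was below both neighbours, and here the low-ratio newborns were the higher 3 (contrast -2.11 ± 0.32, adjusted p = 0.0013, and -2.74 without them). A second MSTN probe set was a trough. MSTN was the 1 trough and USP2, a deubiquitinase, the 1 peak (1.32 ± 0.21, adjusted p = 0.0057) among 9 genes of muscle atrophy.

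Of the fibre proteins that change with development, TNNT2 and MYL4 were troughs with all 6 newborns only. TNNT2, cardiac troponin T, which fetal muscle also makes, had 2986, 2534, 2676, 4088 and 3890 at 94 dpc, 5.16, 16.7 and 9.09 in the low-ratio newborns, 174, 70.9 and 42.4 in the other newborns, and 35.6 to 551 with a median of 271 at 28 dpn. The newborn and 28 dpn values overlapped, and the trough (contrast -4.09 ± 0.50, adjusted p = 0.0094) was lost without the low-ratio newborns (contrast -3.12, adjusted p = 0.25). MYL4, the fetal and atrial light chain, averaged 5673 ± 1840 at 94 dpc, 225 ± 100.2 at 1 dpn and 419.5 ± 104 at 28 dpn (contrast -2.74 ± 0.22) and was lost in the same way (contrast -2.42, adjusted p = 0.23). They were the 2 troughs among 15 myosin and troponin isoforms.

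Matrix genes were lower more often than higher, 11 against 1 of 26, with 4 troughs and a median contrast of -0.52. COL15A1, a collagen of muscle and vessel basement membranes, had 9594, 9577, 14226, 9306 and 9297 at 94 dpc, 966, 3411 and 3735 in the low-ratio newborns, 4347, 3321 and 1562 in the other newborns, and 5632 to 7783 with a median of 6124 at 28 dpn (contrast -1.64 ± 0.24, adjusted p = 0.002), with no overlap. FAP, a protease of fibroblasts, and THY1, a surface protein of fibroblasts, had contrasts of -1.78 ± 0.23 and -1.77 ± 0.37 (adjusted p = 0.0058 and 0.045). THY1 lost its call in 13 of the 17 fits without 1 sample (adjusted p = 0.051 to 0.11) and after centring (adjusted p = 0.056), whereas 1 of its 2 other probe sets was a trough. COL5A2, a fibrillar collagen, had -1.74 ± 0.33 and lost its call without 1 dpn replicate 4 (adjusted p = 0.053) and without the low-ratio newborns (contrast -1.36, adjusted p = 0.22), and a second COL5A2 probe set had 0.83 with no call.

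Endothelial genes held the highest share of troughs of any list. Of 15 measured, 7 were lower, all 7 of them troughs, 1 was higher and 0 were peaks, with a median contrast of -0.56. TIE1, a receptor kinase of vessel lining, had 653, 413, 487, 326 and 272 at 94 dpc, 9.86, 28.4 and 84.2 in the low-ratio newborns, 36.3, 67.5 and 19.7 in the other newborns, and 138 to 340.2 with a median of 206 at 28 dpn (contrast -2.59 ± 0.26, adjusted p = 3.1e-05). All newborns were below both neighbours for TIE1, and likewise for RAMP2, a partner of the adrenomedullin receptor (-1.64 ± 0.20, adjusted p = 0.00048), and CDH5, the cadherin of endothelial junctions (-1.23 ± 0.20, adjusted p = 0.016). CDH5 missed the call without the low-ratio newborns (adjusted p = 0.055) at a contrast of -1.27, with samples still below all neighbours, and RAMP2 kept it at -1.03.

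CLDN5, a claudin of endothelial tight junctions, was 202, 308 and 378 in the low-ratio newborns, against 838, 871 and 1078 in the others, and its contrast of -1.45 ± 0.28 was -0.63 without the low-ratio arrays (adjusted p = 0.63) and lost in 5 of the 17 fits without 1 sample (adjusted p = 0.053 to 0.071). Over the 8 measured endothelial markers the summed signal lay between 12435 and 19458 at 94 dpc, between 4057 and 7075 at 1 dpn, between 8458 and 11595 at 28 dpn and between 3889 and 5640 at 188 dpn. The newborn range held 4057 to 5004 in the low-ratio samples and 6311 to 7075 in the others, all below both neighbours. ENG, singled out after its value was seen, was the higher gene, a receptor of the TGF-beta family (0.74 ± 0.21). It lost that call without the low-ratio newborns, when 0 endothelial genes were higher.

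Antigen presentation and macrophage genes were more often lower than higher. Of 20 genes of antigen presentation, 8 were lower, 1 higher and 5 troughs, but 1 was a trough without the low-ratio arrays. SLA-DQA1, a class II chain of the swine leukocyte antigens, was that gene, with 3072, 1757, 1123, 1423 and 1645 at 94 dpc, 156, 197 and 289.9 in the low-ratio newborns, 1265, 383 and 840.4 in the other newborns, and 1499 to 5002 with a median of 2553 at 28 dpn (contrast -2.37 ± 0.35, adjusted p = 0.00075, and -1.49 without those arrays). CD74, the class II invariant chain, had -1.96 and -1.32 in the 2 fits (adjusted p = 0.003 and 0.088). SLA-DRA and SLA-DQB1, further class II chains, had -2.19 ± 0.38 and -1.84 ± 0.35, each lost in 7 of the 17 fits without 1 sample (adjusted p = 0.055 to 0.094 and 0.053 to 0.11), without the low-ratio newborns (contrasts -1.09 and -0.95, adjusted p = 0.72 and 0.61) and after quantile normalization or centring. Class II genes differ between alleles, and how well the alleles of these animals match the probes was not tested.

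Of 15 macrophage genes, 7 were lower, 0 higher and 2 troughs. FOLR2, a folate receptor of tissue macrophages, averaged 1866 ± 320.1 at 94 dpc, 864 ± 366 at 1 dpn and 1616 ± 228 at 28 dpn (contrast -1.08 ± 0.19, adjusted p = 0.0029), and AIF1, a macrophage actin-binding protein, 524 ± 88.2 at 94 dpc, 272 ± 120.0 at 1 dpn and 973 ± 439 at 28 dpn (contrast -1.41 ± 0.27), lost without 1 dpn replicate 2 or 94 dpc replicate 2 (adjusted p = 0.057 and 0.058). AIF1 was lost also without the low-ratio newborns, after quantile normalization and after centring (contrasts -1.28, -1.21 and -1.23, adjusted p = 0.077, 0.14 and 0.096). The summed signal of 6 macrophage markers was 1055 to 1748 in the low-ratio and 1999 to 4183 in the other newborns, 2654 to 3813 at 94 dpc and 4397 to 12783 at 28 dpn. Its part in the antigen presentation values was not tested. In the interferon-stimulated list 7 of 22 were lower and none a trough (median contrast -0.96), and without the low-ratio newborns 1 was lower (median -0.22).

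Of 9 neutrophil genes, 2 were higher and 1 lower in the contrast, with 1 peak and 1 trough. Over all genes 12.1% were higher, 16.8% lower, 4.38% peaks and 5.85% troughs. S100A8, a calcium-binding protein of neutrophils, had 49.6, 58.7, 14.8, 2.12 and 58.6 at 94 dpc, 87.8, 213 and 83.2 in the low-ratio newborns, 168, 59.6 and 372 in the other newborns, and 2.67 to 77.9 with a median of 35.5 at 28 dpn (contrast 1.70 ± 0.37, adjusted p = 0.0081), with overlap. It was the 1 peak, and 3 of the list were peaks without the low-ratio newborns. ALOX5AP, needed for leukotriene synthesis, was a trough at -0.86 ± 0.20 and was lost in 7 of the 17 fits without 1 sample (adjusted p = 0.053 to 0.079), without the low-ratio newborns (contrast -0.71, adjusted p = 0.18) and after quantile normalization or centring (adjusted p = 0.065 and 0.057). HBB, the beta-globin, was lower in the contrast (-0.72 ± 0.19) and no trough, lying between 297 and 729 at 94 dpc, between 147 and 265 at 1 dpn and between 196 and 346 at 28 dpn. Of 14 erythroid genes 4 were lower and none was a peak or trough.

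Peak calls of ribosomal proteins changed with the scale. Of 60, 20 were higher, 0 lower and 6 peaks on the deposited scale, with a median contrast of 0.21. After quantile normalization there were 0 peaks, 1 trough and a median of 0.03, after centring 18 peaks, and without the low-ratio newborns 2 peaks. The named peaks, RPLP2, RPL31, RPL27 and RPS12, had contrasts of 0.95, 0.59, 0.56 and 0.52, were all lost after quantile normalization, and were lost in 7, 6, 7 and 2 of the 17 fits without 1 sample (lowest adjusted p = 0.061, 0.051, 0.05 and 0.05). Without the low-ratio newborns RPLP2 kept its call and RPL31, RPL27 and RPS12 lost theirs (contrasts 0.48, 0.39 and 0.50, adjusted p = 0.17, 0.24 and 0.071), and another RPS12 probe set had -0.35 with no call. Ribosomal protein genes have many near-identical copies, and the array could mix them.

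Translation factors were called about as often as genes at large, of which 12.1% were higher and 16.8% lower. Of 38, 5 were higher, 7 lower, 1 was a peak and 4 were troughs, with a median contrast of 0.00. EIF4A2, a helicase that opens messenger RNA for scanning, averaged 17480 ± 1253 at 94 dpc, 9225 ± 3558 at 1 dpn and 22947 ± 2576 at 28 dpn (contrast -1.21 ± 0.18, adjusted p = 0.00084), and EIF4B, its cofactor, 4556 ± 149.9 at 94 dpc, 2727 ± 486 at 1 dpn and 4846 ± 429 at 28 dpn (contrast -0.80 ± 0.12, adjusted p = 0.00037). Neither overlapped its neighbours, and a second EIF4B probe set was a trough. EIF5B, which joins the ribosomal subunits, had -0.99 ± 0.18, but its 2 other probe sets gave 0.09 and -0.03 with no call. EIF2A and EIF4H, further initiation factors, had -0.56 ± 0.15 and 0.69 ± 0.19. They were lost in 8 and 7 of the 17 fits without 1 sample (adjusted p = 0.057 to 0.079 and 0.058 to 0.096), and without the low-ratio newborns (contrasts -0.51 and 0.29, adjusted p = 0.13 and 0.45), and another EIF2A probe set had 0.29 with no call.

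Single genes of other lists were also called. GPX1, the glutathione peroxidase, averaged 5354 ± 1580 at 94 dpc, 17220 ± 5756 at 1 dpn and 9843 ± 1572 at 28 dpn (contrast 1.22 ± 0.20), with no overlap, and was lost without 1 dpn replicate 6 or 28 dpn replicate 2 (adjusted p = 0.059 and 0.05). TXNRD1, thioredoxin reductase, had 1.05 ± 0.21 and missed the call without the low-ratio newborns (contrast 0.65, adjusted p = 0.077). Other TXNRD1 probe sets gave 0.04 and 0.42 with no call. PRDX4, a peroxiredoxin of the endoplasmic reticulum, was a trough at -0.67 ± 0.16 that was lost after centring (adjusted p = 0.11). GPX1, TXNRD1 and PRDX4 were the 2 peaks and 1 trough of 26 antioxidant genes, beside 4.38% and 5.85% of all genes. GAMT, which makes creatine, had 639.5, 651, 531, 782 and 615 at 94 dpc, 7.99, 89.0 and 209 in the low-ratio newborns, 1413, 376 and 253 in the other newborns, and 3049 to 6780 with a median of 5427 at 28 dpn. The low-ratio newborns were lower than the others, and the contrast of -3.12 ± 0.49 was -1.78 without them (adjusted p = 0.61), and was lost in 8 of the 17 fits without 1 sample (adjusted p = 0.055 to 0.088) and under either scaling.

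ITIH4, a plasma protein of hepatocytes, averaged 184 ± 83.4 at 94 dpc, 773 ± 231 at 1 dpn and 427 ± 232 at 28 dpn (contrast 1.48 ± 0.25) and was lost in 4 of the 17 fits without 1 sample (adjusted p = 0.057 to 0.075) and without the low-ratio newborns (contrast 1.30, adjusted p = 0.19). It was the 1 peak of 43 plasma protein genes, whose median contrast was 0.28 with all 6 newborns and -0.22 without the low-ratio ones. ALB had 2909, 1949 and 1338 in the low-ratio newborns, against 919, 81.8 and 181 in the others, with no call (contrast 1.43, and -0.03 without the low-ratio newborns). ANKRD37 was the 1 trough of 16 genes that respond to low oxygen, 7 of which were lower and 0 higher (median contrast -0.48). Without the low-ratio newborns 3 of the 16 were lower (median -0.29). Over all genes 16.8% were lower with all 6 newborns and 13.4% without the low-ratio ones. STBD1 was the 1 trough of 15 genes of glycogen and glucose synthesis.

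Several lists held no peak and no trough, beside 4.38% and 5.85% of all genes, so short lists can hold none by that share. These were glycolysis (3 of 17 lower in the contrast, 0 higher), immediate early genes (2 of 26 higher, 2 lower), stress of the endoplasmic reticulum (3 of 20 lower) and cholesterol synthesis (1 of 20 higher, 3 lower). The same held for calcium handling (2 of 8 higher, 2 lower), imprinted genes (2 of 11 higher, 1 lower) and lymphocyte genes (2 of 14 higher, 1 lower). Without the low-ratio newborns, cholesterol synthesis held 2 peaks, glycolysis 1 and the endoplasmic reticulum list 1 trough. In that fit glycolysis had 2 higher and 1 lower, with a median contrast of 0.27, against -0.24 with all 6 newborns. PER1 was the 1 peak of 6 clock genes, and GLUL the 1 peak of 24 genes of amino acid breakdown. GAPDH, read by its probe set of highest mean, lay between 46037 and 58761 at 94 dpc, between 50241 and 83915 at 1 dpn and between 45553 and 79664 at 28 dpn and was not called. Of 4 other GAPDH probe sets, 1 was lower in the contrast (-0.94, adjusted p = 0.025) with means of 1660 at 94 dpc, 3568 at 1 dpn and 18405 at 28 dpn, and 3 were not called.

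**Figure D4:**
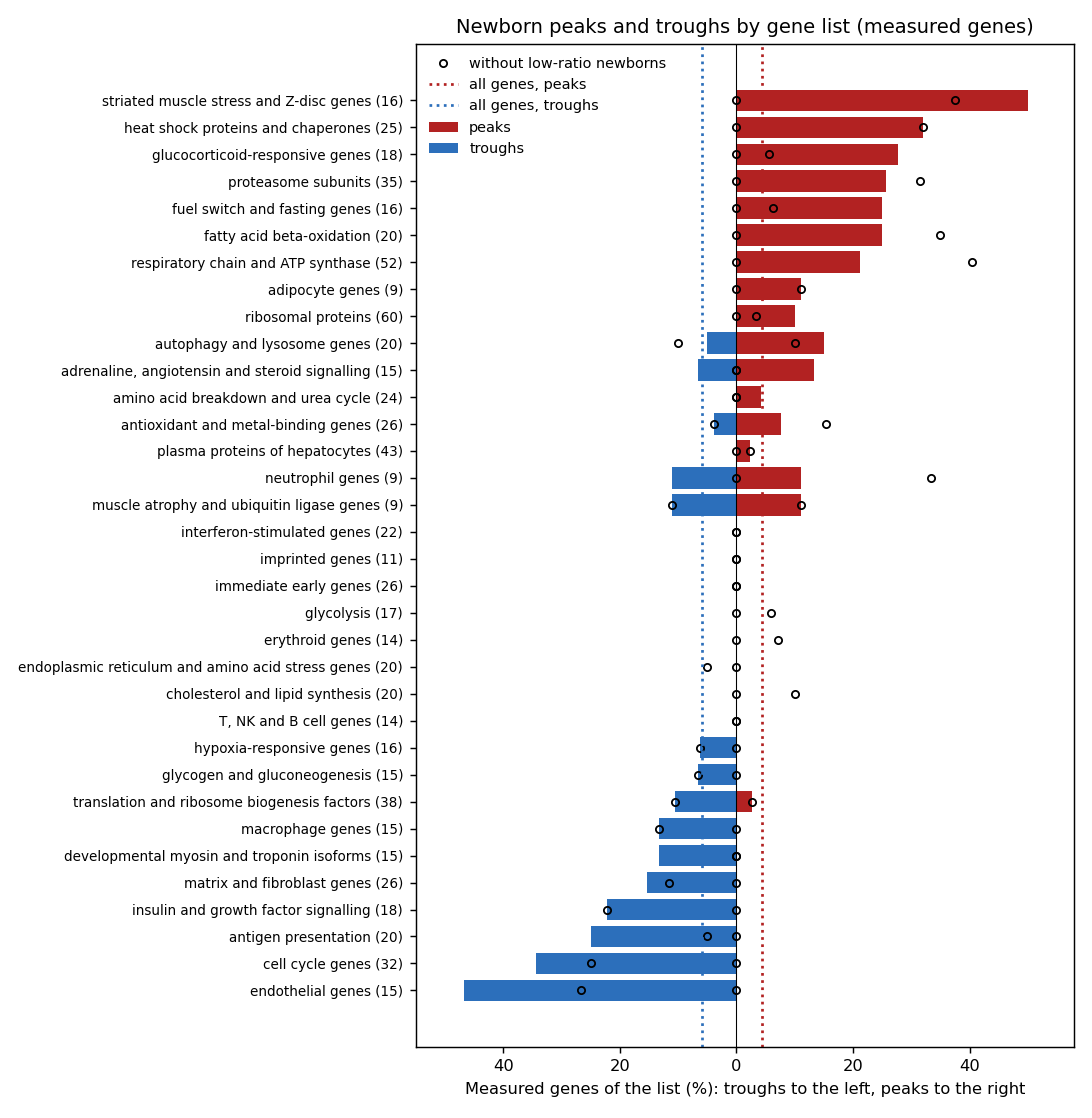
Share of measured genes that were peaks (right, red) or troughs (left, blue) at 1 dpn in each list of at least 9 measured genes, with the number measured in brackets; open circles are the shares without the low-ratio newborns and dotted lines the shares over all genes, 4.38% and 5.85%. Striated muscle stress genes stand at the top with 8 of 16 peaks and endothelial genes at the bottom with 7 of 15 troughs.

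Leaving out the 3 low-ratio newborns kept the direction of every peak and trough and the call of about as many as it ended. That fit had 580 peaks (2.42%) and 1011 troughs (4.21%). Of the peaks found with all 6 newborns, 328 (51.2%) were called again, and of the troughs 616 (53.4%), while 252 peaks and 395 troughs were called without those arrays alone. No called peak or trough changed sign (0 and 0). That fit shares its 3 newborns and all neighbour samples with the fit of all 6, so kept signs are no independent evidence. Fewer newborns also make a call harder to reach, so a lost call alone does not show a smaller difference. Among the named genes, 34 of 52 peaks and 32 of 45 troughs remained.

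The values of both sets of newborns were also compared within the calls. All 3 low-ratio values lay above the other 3 newborns for 168 peaks (26.2%) and below them for 36 (5.62%). For troughs these were 63 (5.46%) and 225 (19.5%). Over all probe sets they were 13.1% and 10.3%. The calls used all 6 values, and a gene further out in the low-ratio samples is more readily called, so these shares describe the samples and are no test. Respiratory chain, beta-oxidation and proteasome lists held more peaks without the low-ratio arrays (21, 7 and 11, against 11, 5 and 9 with all 6), and glucocorticoid, antigen presentation and endothelial lists fewer calls (1 peak, 1 trough and 4 troughs, against 5, 5 and 7).

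**Figure D5:**
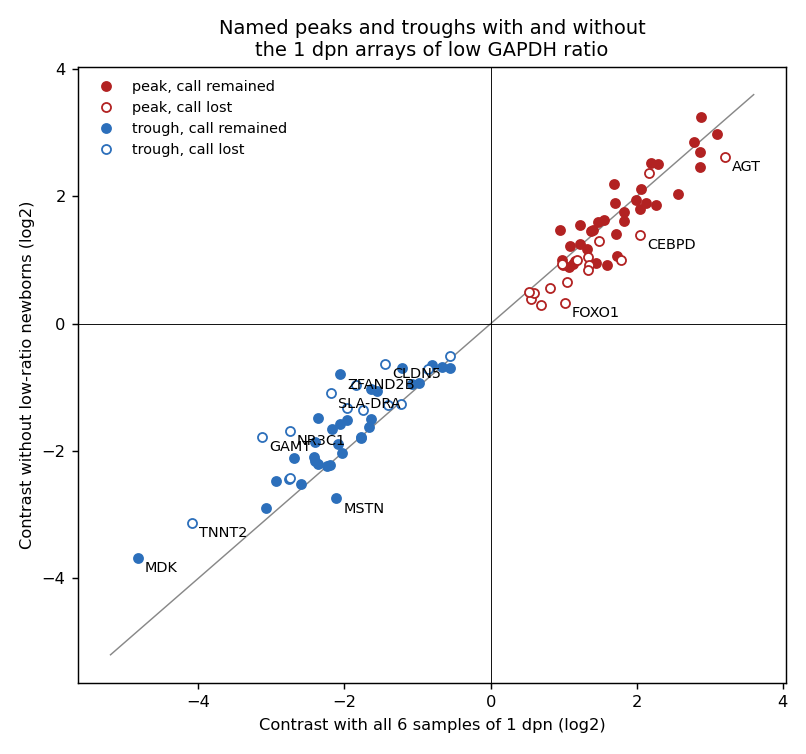
Contrast of each of the 97 named peaks and troughs with all 6 newborns (horizontal) and without the 3 low-ratio newborns (vertical), both in log2, with the line of equality; filled points kept their call and open points lost it. All points keep their sign, and TNNT2, GAMT, NR3C1, CEBPD and FOXO1 lie nearer 0 without those arrays.

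The grown animals of 188 dpn, which entered the fit only through the shared spread, lay mostly on the side of the neighbours. Peaks and troughs were picked for an extreme newborn mean, so another stage tends to fall on that side by the choice alone. The counts describe the samples and are no test. The 188 dpn mean was on the neighbours' side of the newborn mean for 609 of 640 peaks and 972 of 1153 troughs. It was nearer to the neighbour average than to 1 dpn for 503 peaks and 724 troughs. Of the 15 leading peaks 14 were so, ANKRD1 being the exception, and of the 15 leading troughs 10. MYO5B and CPT1B averaged 96.5 ± 65.5 and 1112 ± 193 at 188 dpn (SD, n = 6), and TIE1 and MDK 145 ± 41.9 and 174 ± 110.1.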

How the data were processed

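The deposited values are probe set signal intensities of 23 porcine Affymetrix arrays. Per the labels' protocols, TRI Reagent and, after DNase, an RNeasy kit gave the RNA, of which 0.5 ug was labelled with biotin. The submitters' processing notes name GCOS 1.1.1; for the summarisation method, background correction, array scaling and detection calls the entry is: not given in the sources used here. Signals were analysed on the scale as the authors deposited them, as log2(signal + 16), so fold changes of dim probe sets are understated. The 124 AFFX controls were left out, and 0 columns lacked a sample. Samples were grouped by the stage label; replicate numbers were given in accession order and pair nothing. Nothing in the labels says that animals of a stage had different dams, and precision is limited by how many arrays there were.

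In limma 3.58.1 (R 4.3.3), lmFit with 1 mean per stage over all 23 arrays and eBayes gave 3 two-sided comparisons, of 1 dpn with the average of the 94 dpc and 28 dpn means and with each of them, each adjusted by Benjamini-Hochberg over 23999 probe sets at 0.05. The contrast had 8008 probe sets at an unadjusted p under 0.05. The adjusted p given for a peak or trough is the largest of the 3. A contrast is 1 dpn minus the neighbours in log2, with its SE. In simulated data, 41 of 100 planted newborn rises of 1 in log2 and 94 of 100 of 2 in log2 were called peaks. There the samples were independent and the spread was equal in all stages, unlike in these newborns. Tables and figures were made with Python 3.11.15, pandas 2.3.3 and matplotlib 3.10.9.

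Platform annotation gave 1 symbol to 10069 probe sets, several to 198 and none to 13732. Of those with 1, 9961 were found in the gene table by Entrez ID and 0 symbols were updated. Each of 6765 genes was read by its probe set of highest mean. Named genes were the 15 peaks and 15 troughs with the largest value of the smaller difference, among those without overlapping samples and with a mean above the median probe set (7.15 in log2) at 1 dpn for a peak or at the higher neighbour for a trough, plus up to 4 peaks and 4 troughs per gene list by largest contrast. GAPDH, CKM, ALB, FKBP5, PDK4, ANKRD1, AGT, PNMT and HBB were named whatever their values. ATRX, CCNB1, LCP2, MOSPD2, PHACTR3 and RRP7A passed by that stage alone, with a lower mean over all samples; for RRP7A it was 1 dpn, where it was called high. The genes, lists and comparison were chosen with earlier results of these data known. Alternatives were the arrays used, the scaling, the pseudocount, a filter on dim probe sets, the samples fitted, the moderation, weights, the threshold, the probe set and leaving out each replicate. A fit with only the 3 low-ratio newborns was added after seeing the data.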

Additional observations from a re-analysis of the deposited data

Results flagged for a closer look

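In 17 of 309 gene and stage groups, 1 sample lay further from the rest than Dixon's 95% limit allows, and chance gives 1 in 20 such groups, or 15.4 here. Low-ratio newborns account for 1 of them, ITIH4, which was 1225 in 1 dpn replicate 2, with the other newborns at 597 to 776. Among the newborns of ordinary ratio, ANKRD37 was 95.7 in 1 dpn replicate 1, with the others at 19.9 to 38.1, and HSPB7 was 3067 in 1 dpn replicate 1, with the others at 6861 to 10086. LCP2 was 39.0 in 1 dpn replicate 6, with the others at 2.19 to 8.58. All 4 of these values lay beyond both neighbours on the side of their stage, above for ITIH4 and HSPB7 and below for ANKRD37 and LCP2.

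At 94 dpc, replicate 3 held 4 such values. ALB was 1159 in 94 dpc replicate 3, with the others at 163 to 272, ALOX5AP was 452 in 94 dpc replicate 3, with the others at 691 to 754, COL15A1 was 14226 in 94 dpc replicate 3, with the others at 9297 to 9594, and MOSPD2 was 234 in 94 dpc replicate 3, with the others at 99.7 to 124. CKS2 was 1229 in 94 dpc replicate 4, with the others at 1586 to 1716, EIF4H was 4482 in 94 dpc replicate 1, with the others at 3062 to 3213, and PRDX4 was 9607 in 94 dpc replicate 5, with the others at 7689 to 8156.

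At 28 dpn, ALB was 6400 in 28 dpn replicate 1, with the others at 34.5 to 174, and HSPA9 was 11042 in 28 dpn replicate 1, with the others at 7532 to 8654. COL5A2 was 46.7 in 28 dpn replicate 2, with the others at 113 to 165, and NR3C1 was 122 in 28 dpn replicate 2, with the others at 268 to 378. COL15A1 was 7783 in 28 dpn replicate 3, with the others at 5632 to 6328, and SQSTM1 was 9022 in 28 dpn replicate 5, with the others at 4181 to 5541.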

How the results depend on the processing

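With all 6 newborns, 1791 probe sets were higher and 3562 lower in the contrast, with 640 peaks and 1153 troughs. Centring moved these to 2902, 2223, 1013 and 679, and an adjusted p under 0.01 to 1016, 2067, 312 and 508. Only the 3 low-ratio newborns gave 1170 peaks and 1912 troughs. Leaving out 1 sample gave 1505 to 1898 higher, 3043 to 3629 lower, 530 to 757 peaks and 931 to 1391 troughs. Every other alternative run kept these 4 counts within 1.5 times. Of the 97 named peaks and troughs, 66 kept their call without the low-ratio newborns, 80 when the probe sets of a gene were averaged, 84 with only the 17 arrays of the 3 stages, 85 after quantile normalization, 88 after centring and 74 in every fit without 1 sample, and none changed sign in these fits (0 for each). Of 52 other probe sets of these genes, 11 were called the same way, 26 had the same sign and missed the call, and 15 had the opposite sign, 1 of them called: ATP5I -0.18, COL5A2 0.83, DNAJB6 -0.63 (called), EIF2A 0.29, EIF5B 0.093, GLUL -0.33, HSPA9 -0.030, HSPB6 -0.51, IGF1 0.32, MAP1LC3B -0.18, NFIC -0.90, NR3C1 0.44 and 0.84, RPS12 -0.35 and UBE2C 0.092. A stricter threshold calls fewer probe sets by construction; for the other changes the cause was not tested. No paired analysis was possible because the labels give no shared replicate numbers. Detection calls were not used here, so values of a few units of signal have no known distance from background.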
